A study of Mus musculus with 16 samples.

Results

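The genes described here encode enzymes that remove superoxide and peroxides: Sod1, Sod2, Sod3, Cat, Gpx1, Gpx3, Gpx4, Prdx3, Prdx5 and Prdx6. They were taken as the non-control array probes whose gene name is one of these 10 symbols, which gave 15 of the 41174 probes. All 10 genes were among the 15667 genes measured, and for each the probe that stands for it was well above background on all 16 arrays. Messenger RNA of the mouse left ventricle was measured on single-colour Agilent arrays, with 1 array for each of 16 mice. The alpha-MHC-NOS3 mice, called NOS3-TG here, express nitric oxide synthase 3 (NOS3), an enzyme of blood vessel lining that produces nitric oxide, from the promoter of alpha-myosin heavy chain, which drives expression in cardiomyocytes. They were set against wild-type (WT) littermates. All mice had a C57BL/6 N background, the transgenic mice after 7 generations of backcrossing. The design matched the mice for age and weight. Their ages and the number of founder lines are not given in the sources used here. The 4 groups were NOS3-TG mice 10 weeks after transverse aortic constriction (TAC, in which the aortic arch is tied to a smaller width so that the ventricle pumps against more pressure), intact NOS3-TG mice, WT mice 10 weeks after TAC and intact WT mice. The intact mice are called baseline. Each group held 4 mice, 2 males and 2 females.

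Superoxide is made in the heart by the respiratory chain and by oxidases. Superoxide dismutases turn it into hydrogen peroxide, and catalase, glutathione peroxidases and peroxiredoxins turn peroxides into water or alcohols. Glutathione peroxidases draw electrons from glutathione and most peroxiredoxins from thioredoxin, so both depend on enzymes that keep these donors reduced. Superoxide also reacts with nitric oxide to form peroxynitrite, which some peroxiredoxins reduce.

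On the transgene's own gene, Nos3, the NOS3-TG arrays lay 5.70 above the WT arrays after TAC and 6.59 above them at baseline on the log2 scale, with no overlap. Nppb, a natriuretic peptide gene of the loaded ventricle, was higher after TAC by 2.08 in NOS3-TG and by 2.94 in WT, and all 8 cardiomyocyte markers were measured. Array brightness was even, with a 75th percentile of the signal of 1053 to 1491. Probes well above background made up 50.6% to 55.8% of each array, except for 68.0% (replicate 4) and 46.2% (replicate 3) in NOS3-TG TAC and 44.5% (replicate 2) in NOS3-TG baseline. Slides 2 and 3 held the TAC arrays and slides 1 and 4 the baseline arrays, with both genotypes and both sexes on every slide, and slide 3 had a scan day of its own. The effect of TAC can therefore not be told apart from surgery or slide.

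The 250 bases before the transcription start (RefSeq, GRCm38.p6) are shown for 6 of the genes that the results turn on, because their promoters differ in makeup. A link between this makeup and the differences after TAC was not tested. Of the 10 genes, 8 had such a window. Both strands were searched for the antioxidant response element core TGACNNNGC (held by 10.2% of 32851 such windows of all genes), the NRF1 motif, GCGCA and GCGC with any base between them (3.74%), the estrogen-related receptor motif TNAAGGTCA (1.14%), the GC box GGGCGG (32.7%) and the CCAAT box CCAAT (33.85%). Matches on either strand are in capitals, and neighbouring or overlapping matches run together.
Sod1, chr16:90220512-90220761, plus strand: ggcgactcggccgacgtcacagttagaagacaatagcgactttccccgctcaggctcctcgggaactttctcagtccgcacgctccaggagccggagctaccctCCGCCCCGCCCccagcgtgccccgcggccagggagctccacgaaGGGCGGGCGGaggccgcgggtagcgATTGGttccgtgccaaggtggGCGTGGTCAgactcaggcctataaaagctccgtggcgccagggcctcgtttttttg
Sod2, chr17:13007589-13007838, plus strand: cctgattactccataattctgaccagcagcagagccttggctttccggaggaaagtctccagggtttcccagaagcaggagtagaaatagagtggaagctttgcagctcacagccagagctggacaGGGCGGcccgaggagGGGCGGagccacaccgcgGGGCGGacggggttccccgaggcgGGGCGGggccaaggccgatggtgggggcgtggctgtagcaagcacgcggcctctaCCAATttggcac
Cat, chr2:103485154-103485403, minus strand: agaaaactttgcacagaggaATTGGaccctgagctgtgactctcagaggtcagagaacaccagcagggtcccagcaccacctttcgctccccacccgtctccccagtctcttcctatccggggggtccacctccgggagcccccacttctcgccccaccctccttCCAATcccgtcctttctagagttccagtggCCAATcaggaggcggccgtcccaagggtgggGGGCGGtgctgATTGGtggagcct
Gpx1, chr9:108338830-108339079, plus strand: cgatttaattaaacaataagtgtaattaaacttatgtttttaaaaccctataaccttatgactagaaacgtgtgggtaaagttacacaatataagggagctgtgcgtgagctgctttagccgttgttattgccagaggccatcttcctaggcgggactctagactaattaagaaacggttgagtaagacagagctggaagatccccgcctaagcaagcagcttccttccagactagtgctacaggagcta
Gpx3, chr11:54902604-54902853, plus strand: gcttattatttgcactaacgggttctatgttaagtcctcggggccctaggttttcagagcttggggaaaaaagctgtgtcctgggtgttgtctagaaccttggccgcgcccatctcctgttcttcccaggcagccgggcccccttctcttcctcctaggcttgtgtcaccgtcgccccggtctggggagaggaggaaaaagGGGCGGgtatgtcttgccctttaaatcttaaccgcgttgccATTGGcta
Prdx5, chr19:6910107-6910356, minus strand: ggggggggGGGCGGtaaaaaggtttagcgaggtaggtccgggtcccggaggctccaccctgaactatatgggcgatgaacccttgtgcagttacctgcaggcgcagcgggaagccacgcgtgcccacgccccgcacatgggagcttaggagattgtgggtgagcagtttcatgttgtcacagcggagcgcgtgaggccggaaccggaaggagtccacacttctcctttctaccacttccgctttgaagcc
The Sod1 window was the only one of the 8 with the antioxidant response element core. A GC box was found in 7 of the 8 genes and a CCAAT box in 5, while the estrogen-related receptor motif was found in none and the NRF1 motif only in Gpx4. Sod2 had 4 GC boxes and Cat 4 CCAAT boxes. The Gpx1 window had none of the searched strings and the lowest share of G and C among the printed windows (42.0%), against 66.4% for Sod1. A match is a description of these letters and no evidence of binding, and a missing match says only that the letters are not in this window.

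In WT hearts TAC changed 5 of the 10 genes: Gpx1 and Gpx3 rose, and Sod2, Prdx3 and Prdx5 fell. In NOS3-TG hearts 1 of the 10 passed the test, Prdx5, which fell. A gene was called at an adjusted p under 0.05, from limma over all 15667 genes with Benjamini-Hochberg adjustment. That rule called 28.5% of all genes in WT (10.9% higher, 17.6% lower) and 11.8% in NOS3-TG (6.48% higher, 5.36% lower), so 5 of 10 and 1 of 10 are to be read against those shares. The median log2 difference of the 10 genes was -0.22 in WT, against -0.06 over all genes, and -0.09 in NOS3-TG, against 0.00 over all genes. In these pieces of whole ventricle, fewer cells of a type and less RNA per cell cannot be told apart.

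**Figure D1:**
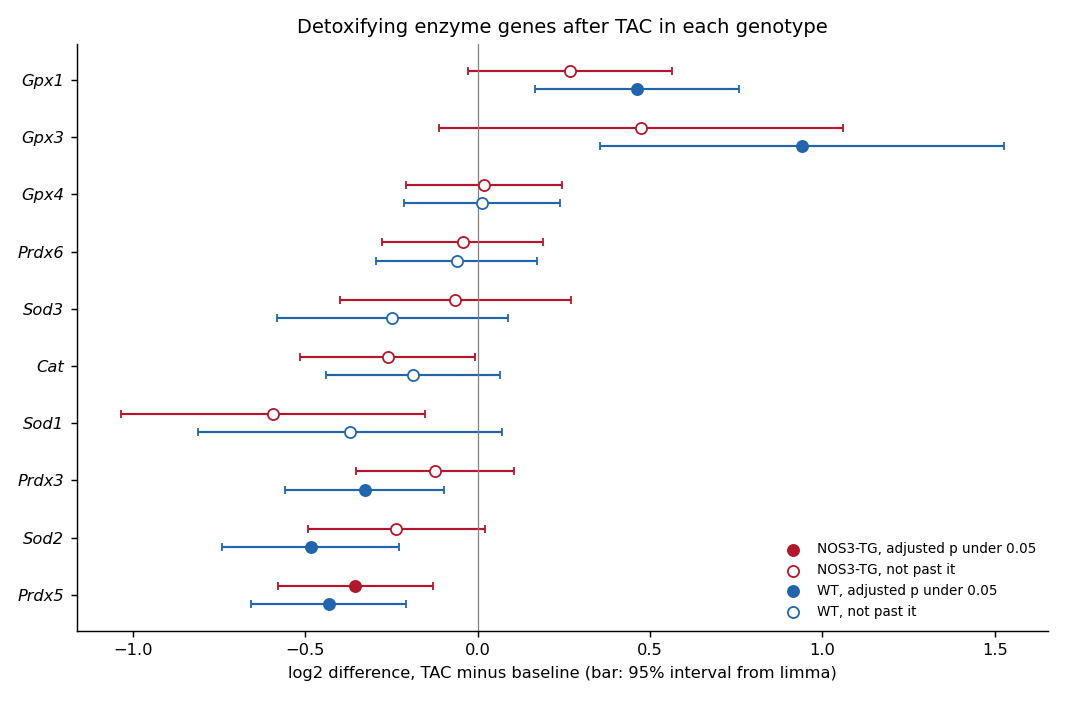
Log2 difference between TAC and baseline (horizontal axis) for the 10 genes in NOS3-TG (red, upper of each pair) and WT hearts (blue, lower), with the 95% interval from limma (n = 4 arrays per group); filled points had an adjusted p under 0.05. The filled points are Gpx1, Gpx3, Sod2, Prdx3 and Prdx5 in WT and Prdx5 in NOS3-TG, and the NOS3-TG point has the same sign as the WT point for each gene.

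Values in the next paragraphs are log2 signal minus the array's own 75th percentile, so that 0 marks that percentile and 1 unit is a factor of 2. Replicates 1 and 3 of a group were males and replicates 2 and 4 females, and values are given in the order of the replicate numbers. A probe's brightness depends on its sequence, so levels are compared between groups and not between genes.

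Sod1 encodes the copper and zinc superoxide dismutase of the cytosol (probe at chr16:90276179-90276238, in coordinates of the array file, of unstated genome build). Its values were 6.76, 6.99, 6.69 and 5.76 after TAC in NOS3-TG, against 7.02, 6.99, 7.33 and 7.24 at baseline. In WT hearts they were 6.90, 6.91, 6.86 and 6.49 after TAC and 7.18, 7.09, 7.10 and 7.27 at baseline. The WT groups did not overlap, while in NOS3-TG the highest TAC array reached the lowest baseline arrays. Neither difference passed the test, with -0.59 ± 0.20 (SE) in NOS3-TG (95% interval -1.03 to -0.15, adjusted p = 0.0778) and -0.37 ± 0.20 in WT (-0.81 to 0.07, adjusted p = 0.197). NOS3-TG TAC replicate 4, the array with 68.0% of probes above background, had the lowest Sod1 value, and without it the NOS3-TG difference was -0.33. Without that array the WT difference had an adjusted p of 0.037, since all groups share 1 estimate of the spread, and without NOS3-TG TAC replicate 2 the NOS3-TG difference had an adjusted p of 0.0218. The WT difference was -0.20 with quantile normalization, -0.24 with the authors' values and -0.15 with scan day as a block. A second Sod1 probe (chr16:90273863-90273922), above background on 9 arrays, was also lower after TAC, by 0.28 ± 0.37 in NOS3-TG and by 0.56 ± 0.37 in WT, and did not pass the test. Another probe, printed on 10 spots, was above background on no array.

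Sod2 encodes the manganese superoxide dismutase of the mitochondrial matrix (probe at chr17:11746836-11746895). NOS3-TG hearts had values of 7.07, 7.43, 6.97 and 7.38 after TAC, against 7.39, 7.26, 7.60 and 7.54 at baseline. WT hearts had 7.29, 7.28, 7.09 and 6.92 after TAC, against 7.57, 7.62, 7.58 and 7.76 at baseline. All WT TAC arrays lay below all WT baseline arrays, whereas the NOS3-TG groups overlapped. Sod2 fell in WT by 0.48 on the log2 scale (SE 0.12, adjusted p = 0.00973), a TAC over baseline ratio of 0.715. That call held when any 1 of the 16 arrays was left out, with adjusted p between 0.00699 and 0.0344. The NOS3-TG difference of -0.24 ± 0.12 did not pass (-0.49 to 0.02, adjusted p = 0.218).

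Sod3 encodes the superoxide dismutase that is secreted and held at the cell surface and matrix (probe at chr5:51741388-51741447). Its values ran from -2.86 to -2.01 in NOS3-TG TAC, from -2.69 to -2.19 in NOS3-TG baseline, from -2.53 to -2.01 in WT TAC and from -2.36 to -1.51 in WT baseline. Ranges of all 4 groups overlapped. TAC minus baseline was -0.06 ± 0.16 in NOS3-TG (-0.40 to 0.27) and -0.25 ± 0.16 in WT (-0.58 to 0.09), and neither passed the test (adjusted p = 0.83 and 0.258).

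Cat encodes catalase, the peroxisomal enzyme that splits hydrogen peroxide without an electron donor (probe at chr2:103305290-103305349). Its values were 3.76, 4.29, 3.88 and 4.27 after TAC in NOS3-TG, against 4.28, 4.17, 4.50 and 4.31 at baseline. WT hearts had 3.87, 3.77, 3.79 and 3.63 after TAC, against 3.91, 3.94, 3.93 and 4.02 at baseline. The WT groups were narrow and did not overlap, while NOS3-TG TAC split into males at 3.76 and 3.88 and females at 4.29 and 4.27. Neither TAC difference passed the test, with -0.26 ± 0.12 in NOS3-TG (-0.51 to -0.01, adjusted p = 0.166) and -0.19 ± 0.12 in WT (-0.44 to 0.07, adjusted p = 0.255). Without NOS3-TG TAC replicate 1 the NOS3-TG difference was -0.17.

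Gpx1, the glutathione peroxidase of cytosol and mitochondria (probe at chr9:108073279-108073338), was higher on most TAC arrays. Its values were 5.69, 5.19, 5.23 and 5.27 after TAC in NOS3-TG, against 4.98, 5.18, 4.97 and 5.18 at baseline. In WT hearts they were 5.44, 4.88, 5.33 and 5.38 after TAC, against 4.94, 4.77, 4.64 and 4.84 at baseline. The NOS3-TG groups did not overlap, although their nearest arrays were 5.19 after TAC and 5.18 at baseline, while in WT the array at 4.88 lay within the baseline range. Gpx1 rose in WT by 0.46 ± 0.14 (1.38-fold, adjusted p = 0.0245), and the NOS3-TG difference of 0.27 ± 0.14 did not pass (-0.03 to 0.56, adjusted p = 0.226). The WT call was lost without WT TAC replicate 1 (adjusted p = 0.0682), 3 (0.0561) or 4 (0.0798) and without WT baseline replicate 2 (0.0529) or 3 (0.0783).

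Gpx3, the glutathione peroxidase that is secreted into plasma and extracellular space (probe at chr11:54866691-54866750), had the largest rise of the 10 genes in WT. NOS3-TG hearts had values of 3.97, 3.88, 3.52 and 3.00 after TAC, against 3.10, 3.36, 2.69 and 3.31 at baseline. WT hearts had 3.89, 2.84, 3.59 and 4.08 after TAC, against 2.83, 2.83, 2.42 and 2.56 at baseline. Each WT TAC array lay above all WT baseline arrays, but replicate 2 did so by a small margin, and the NOS3-TG groups overlapped. Gpx3 rose in WT by 0.94 ± 0.27 (1.92-fold, adjusted p = 0.0213), while the NOS3-TG difference was 0.47 ± 0.27 (-0.11 to 1.06, adjusted p = 0.278). The WT call was lost without WT TAC replicate 1 (adjusted p = 0.0601) or 4 (0.0759) and without WT baseline replicate 3 (0.0633) or 4 (0.0509).

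Gpx4, which reduces lipid hydroperoxides within membranes (probe at chr10:79836650-79836709), showed no difference that passed. Its group means were 6.36 ± 0.15 (SD, n = 4) in NOS3-TG TAC, 6.34 ± 0.09 in NOS3-TG baseline, 6.25 ± 0.15 in WT TAC and 6.24 ± 0.15 in WT baseline. TAC minus baseline was 0.02 in NOS3-TG (-0.21 to 0.25) and 0.01 in WT (-0.21 to 0.24), so a change beyond 0.25 in either direction lies outside both intervals.

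Prdx3, a thioredoxin-dependent peroxiredoxin of the mitochondrial matrix (probe at chr19:60786953-60787012), had values of 4.39, 4.63, 4.33 and 4.46 after TAC in NOS3-TG, against 4.64, 4.28, 4.73 and 4.66 at baseline. WT hearts had 4.39, 4.60, 4.44 and 4.34 after TAC, against 4.67, 4.83, 4.72 and 4.88 at baseline. The WT groups did not overlap, and in NOS3-TG the lowest of all values was a baseline array. Prdx3 fell in WT by 0.33 on the log2 scale (SE 0.11, adjusted p = 0.0361), and the NOS3-TG difference was -0.12 ± 0.11 (-0.35 to 0.11, adjusted p = 0.487). Without that baseline array, replicate 2, the NOS3-TG difference was -0.24 (adjusted p = 0.0791), and without NOS3-TG baseline replicate 3 it was -0.06. The WT call was lost without WT TAC replicate 1 (adjusted p = 0.0745), 3 (0.0633) or 4 (0.110) and without WT baseline replicate 2 (0.0819), 3 (0.0663) or 4 (0.0891).

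Prdx5, a peroxiredoxin of mitochondria, peroxisomes and cytosol that also reduces peroxynitrite (probe at chr19:6726975-6727409), was the gene called in both genotypes. NOS3-TG hearts had values of 3.89, 4.22, 3.81 and 4.02 after TAC, against 4.32, 4.13, 4.49 and 4.42 at baseline. WT hearts had 4.11, 4.05, 4.09 and 3.94 after TAC, against 4.34, 4.46, 4.53 and 4.59 at baseline. In WT the groups were well apart, and in NOS3-TG a TAC array at 4.22 lay above a baseline array at 4.13. Prdx5 fell in WT by 0.43 on the log2 scale (SE 0.10, ratio 0.741, adjusted p = 0.00869), a call that held when any 1 array was left out (highest adjusted p 0.0319). It fell in NOS3-TG by 0.35 on the log2 scale (SE 0.10, ratio 0.782, adjusted p = 0.043). The NOS3-TG call was lost without NOS3-TG TAC replicate 1, 3 or 4, NOS3-TG baseline replicate 1, 3 or 4, WT TAC replicate 1 or 3, or WT baseline replicate 2, 3 or 4, with adjusted p between 0.0513 and 0.120, and with slide as a block (0.0507).

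Prdx6, the peroxiredoxin with a single catalytic cysteine and a phospholipase activity (probe at chr1:161203565-161203624), showed no difference that passed. Its group means were 4.92 ± 0.18 (SD, n = 4) in NOS3-TG TAC, 4.96 ± 0.17 in NOS3-TG baseline, 4.76 ± 0.11 in WT TAC and 4.82 ± 0.10 in WT baseline. TAC minus baseline was -0.04 in NOS3-TG (-0.28 to 0.19) and -0.06 in WT (-0.29 to 0.17). A second probe (chr1:161209633-161209692), above background on all 16 arrays, gave -0.08 and -0.02. RefSeq lists a copy gene, Prdx6b, and a pseudogene of Prdx6, and whether the probes also bind their transcripts was not tested. The other 2 Prdx6 probes were above background on 0 and 2 arrays.

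**Figure D2:**
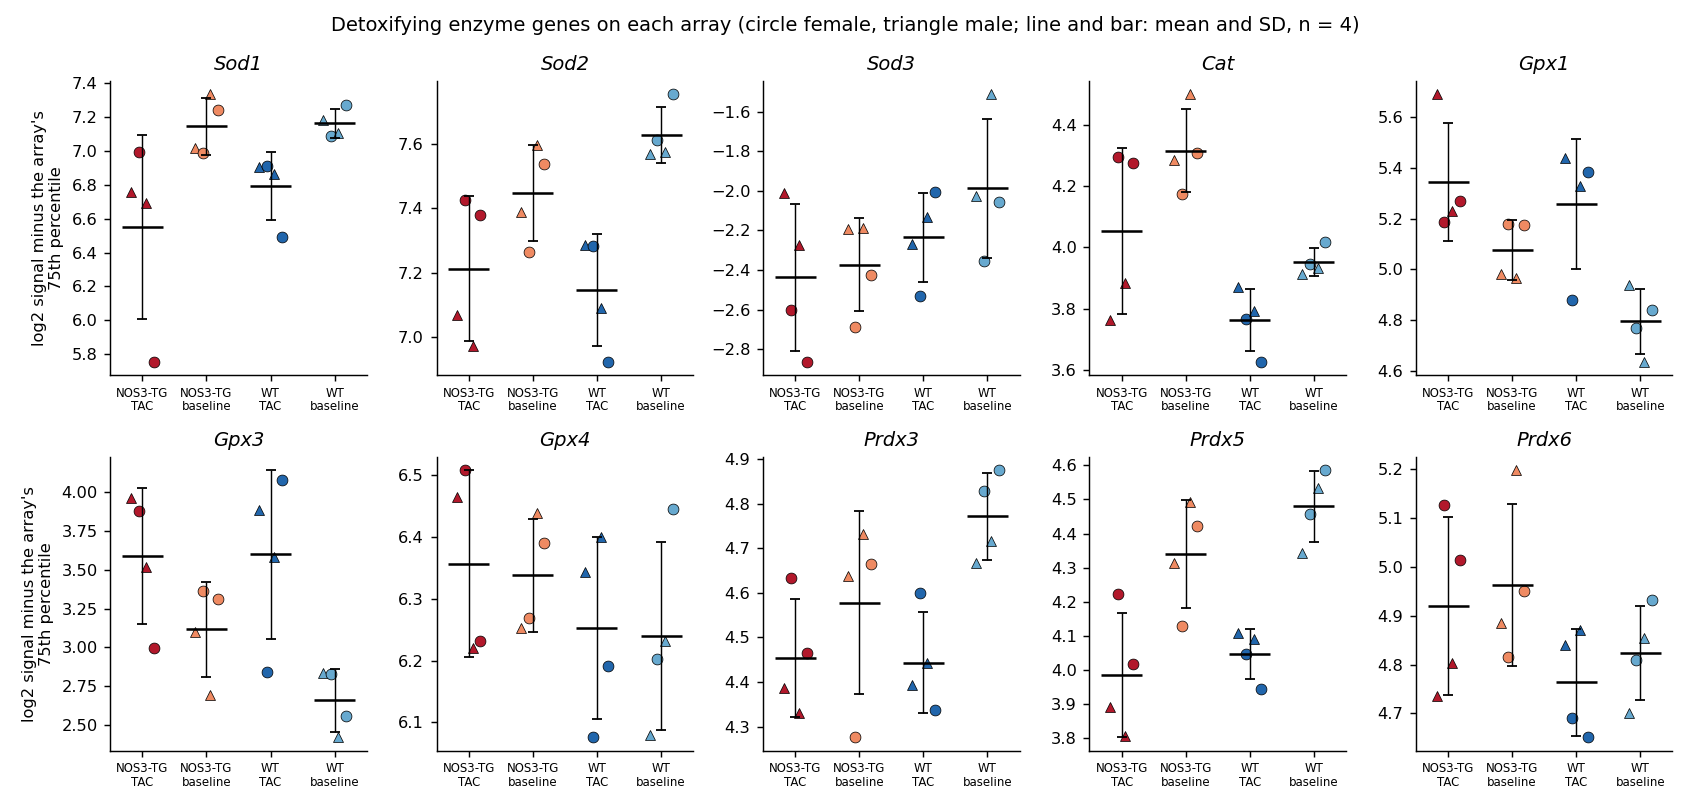
Each panel plots 1 gene on every array as log2 signal minus the array's 75th percentile (vertical axis, own range per gene), for NOS3-TG TAC, NOS3-TG baseline, WT TAC and WT baseline from left to right; circles are females, triangles males, and the line and bar give the mean and SD of 4 arrays. The WT TAC and WT baseline groups do not overlap for Sod1, Sod2, Cat, Gpx3, Prdx3 and Prdx5, and Sod1 on NOS3-TG TAC replicate 4 stands far below the rest at 5.76.

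Groups did not overlap between WT TAC and WT baseline for 6 of the 10 genes, 5 of them lower and Gpx3 higher, against 27.5% of all genes (10.2% higher, 17.3% lower). Between NOS3-TG TAC and NOS3-TG baseline only Gpx1 was free of overlap, on the higher side, against 16.6% of all genes (9.18% higher). With both genotypes averaged, which uses the same arrays again, 7 of the 10 genes were called, 2 higher and 5 lower, against 37.2% of all genes (16.3% higher, 20.9% lower). Gpx1 (0.37 ± 0.10) and Gpx3 (0.71 ± 0.19) rose, while Sod1 (-0.48 ± 0.14), Sod2 (-0.36 ± 0.08), Cat (-0.22 ± 0.08), Prdx3 (-0.23 ± 0.08) and Prdx5 (-0.39 ± 0.07) fell. The calls of Sod1, Sod2, Gpx1, Gpx3 and Prdx5 held when any 1 array was left out (highest adjusted p 0.0422). That of Cat (adjusted p = 0.0484) held only without NOS3-TG TAC replicate 2 or 4, NOS3-TG baseline replicate 2 or WT TAC replicate 1, with an adjusted p of up to 0.0992 otherwise. That of Prdx3 (adjusted p = 0.0317) held without NOS3-TG TAC replicate 2, NOS3-TG baseline replicate 2, WT TAC replicate 2 or 3, or WT baseline replicate 1 or 3, with an adjusted p of up to 0.0666 otherwise. With scan day as a fixed term (scan day as a block), the calls of Gpx1 (adjusted p = 0.0665) and Prdx3 (0.135) in WT and of Prdx5 in NOS3-TG (0.16) were lost. Of the 7 averaged calls those of Gpx3 (0.0454) and Prdx5 (0.0198) were kept. In WT those of Sod2 (0.0491), Gpx3 (0.0485) and Prdx5 (0.0416) were kept.

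Whether TAC acted differently in the 2 genotypes was tested as an interaction (the TAC effect in NOS3-TG minus that in WT), and no gene of all 15667 passed in limma (0.00% called), while 1165 had an unadjusted p under 0.05. For Gpx3 the interaction was -0.47 (95% interval -1.30 to 0.36), for Sod2 0.25 (-0.12 to 0.61), for Prdx3 0.20 (-0.12 to 0.53) and for Gpx1 -0.19 (-0.61 to 0.23). The calls in WT that were missing in NOS3-TG are therefore not shown to differ between the genotypes. For Prdx5 the interaction was 0.08 (-0.24 to 0.39), with TAC differences of -0.35 in NOS3-TG and -0.43 in WT.

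Between the genotypes none of the 10 genes was called, either after TAC (0.281% of all genes were), at baseline (0.415%) or averaged over both conditions (2.07%). Cat came nearest. It was higher in NOS3-TG by 0.33 ± 0.08 averaged over both conditions (1.25-fold, 95% interval 0.15 to 0.51, adjusted p = 0.0652), by 0.29 ± 0.12 after TAC (adjusted p = 0.327) and by 0.36 ± 0.12 at baseline (adjusted p = 0.229). At baseline all 4 NOS3-TG arrays (4.17 to 4.50) lay above all 4 WT arrays (3.91 to 4.02), an order found for 3.89% of all genes. After TAC the NOS3-TG arrays ran from 3.76 to 4.29 and the WT arrays from 3.63 to 3.87, with overlap. The difference within slides, each with 2 arrays of either genotype, was 0.30, 0.21, 0.37 and 0.43 on slides 1, 2, 3 and 4. The averaged difference of Cat passed with quantile normalization (0.35, adjusted p = 0.0169), with the authors' values (0.34, adjusted p = 0.018), with a filter requiring signal on all arrays (adjusted p = 0.0457) and without NOS3-TG TAC replicate 1 (adjusted p = 0.0333). It did not pass under any other alternative, such as no filter (adjusted p = 0.198) or slide (0.0774) or scan day (0.0786) as a block. Nor did it pass without the 3 arrays with unusual shares above background (0.159), or with any other 1 array left out (up to 0.126). In order of group means, Cat was at 4.31 ± 0.14 (SD, n = 4) in NOS3-TG baseline, 4.05 ± 0.27 in NOS3-TG TAC, 3.95 ± 0.04 in WT baseline and 3.76 ± 0.10 in WT TAC. NOS3-TG TAC overlapped with each of the other 3 groups.

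No other gene came as near to the threshold. Gpx1 was higher in NOS3-TG baseline (4.97 to 5.18) than in WT baseline (4.64 to 4.94) on every array, by 0.28 ± 0.14 (-0.02 to 0.58, adjusted p = 0.428), while after TAC the difference was 0.09 ± 0.14. Within slides it was 0.23, 0.28, -0.11 and 0.33 on slides 1, 2, 3 and 4. Sod3 was lower in NOS3-TG by 0.29 ± 0.11 over both conditions (adjusted p = 0.205), with -0.25, 0.09, -0.50 and -0.52 within the 4 slides in the same order. Prdx6 was higher in NOS3-TG by 0.15 ± 0.08 (-0.02 to 0.31, adjusted p = 0.373), with positive values within all 4 slides (0.10 to 0.18). For Gpx3 the within-slide differences were 0.40, 0.56, -0.57 and 0.51, so that the 2 TAC slides pointed opposite ways, and its average was 0.22 ± 0.19 (-0.19 to 0.64). For Sod1, Sod2, Gpx4, Prdx3 and Prdx5 the averaged difference lay between -0.13 and 0.10, and for Prdx5 it was negative within all 4 slides (-0.18, -0.02, -0.10 and -0.10).

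**Figure D3:**
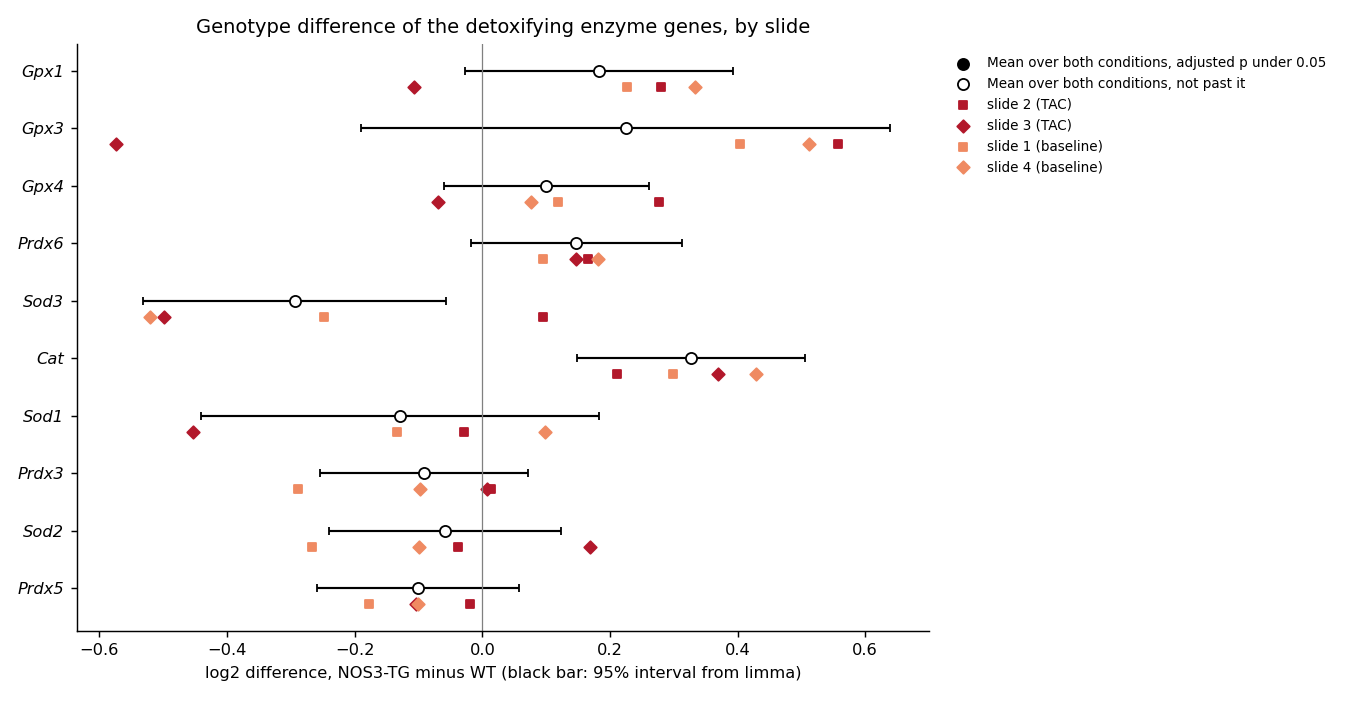
Log2 difference NOS3-TG minus WT (horizontal axis) for the 10 genes: circles with bars give the average over TAC and baseline with its 95% interval from limma (8 arrays per genotype), open because none had an adjusted p under 0.05, and squares and diamonds give the difference within each slide (2 arrays per genotype). All 4 slides are positive for Cat (0.21 to 0.43) and for Prdx6, all 4 are negative for Prdx5, and slide 3 falls on the other side of 0 from the other slides for Gpx1, Gpx3, Gpx4 and Sod2.

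Between the sexes none of the 10 genes was called (1.33% of all genes were). Sod3 was lower in females by 0.37 ± 0.11 (95% interval -0.60 to -0.13, adjusted p = 0.120). Females minus males gave -0.59 in NOS3-TG TAC, -0.37 in NOS3-TG baseline, -0.07 in WT TAC and -0.44 in WT baseline, from 2 mice of each sex. Without WT TAC replicate 4, the WT TAC female with the highest value of that group, the difference passed (adjusted p = 0.0267).

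The peroxidases depend on donors, and these were described through lists of partner genes. Of 18 genes of the thioredoxin and glutathione cycles and of NADPH supply, 0 were called after TAC in NOS3-TG, against 11.8% of all genes. In WT 2 rose and 5 fell, against 10.9% of all genes higher and 17.6% lower. In WT the rises were those of Txn1, the cytosolic thioredoxin (0.41 ± 0.08, adjusted p = 0.00279), and Srxn1, the sulfiredoxin that repairs overoxidised peroxiredoxins (0.48 ± 0.13, adjusted p = 0.0170). The falls included Glrx, a glutaredoxin (-0.71 ± 0.13, adjusted p = 0.0020), the mitochondrial glutaredoxin Glrx5 (-0.35 ± 0.08) and the mitochondrial thioredoxin Txn2 (-0.31 ± 0.07), which is the electron donor of Prdx3. Txn1, Glrx, Glrx5 and Txn2 were called under each alternative and with any 1 array left out, whereas Srxn1 was lost without WT baseline replicate 4 (adjusted p = 0.0545), without the sex term (0.0524) and with scan day as a block (0.0677). The 18 genes had a median log2 difference of -0.09 in NOS3-TG and -0.12 in WT.

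Between the genotypes, genes of these partner lists were called although none of the 10 enzymes was. Of all genes, 2.07% were called over both conditions and 0.415% at baseline. Over both conditions 3 of the 18 rose in NOS3-TG: Srxn1 by 0.65 ± 0.09 (adjusted p = 0.00327), Txn1 by 0.31 ± 0.06 (adjusted p = 0.0145) and Txnrd1, the cytosolic thioredoxin reductase, by 0.44 ± 0.09 (adjusted p = 0.0240). Srxn1 was at 2.67 ± 0.36 (SD, n = 4) in NOS3-TG TAC against 2.36 ± 0.19 in WT TAC, and at 2.88 ± 0.28 in NOS3-TG baseline against 1.88 ± 0.07 in WT baseline. At baseline its groups did not overlap and it was called (1.00 ± 0.13, adjusted p = 0.00396), and both calls held under each alternative and with any 1 array left out. Of the 5 measured genes of glutathione synthesis and supply, 2 rose: Gclm, the modifier subunit of the enzyme that limits glutathione synthesis (0.74 ± 0.11, adjusted p = 0.0055), and Gclc, its catalytic subunit (0.38 ± 0.08, adjusted p = 0.0309). Gclm was also called at baseline (1.03 ± 0.16, adjusted p = 0.0134). Of 6 further measured peroxidase genes only Prdx1, the main cytosolic peroxiredoxin, rose (0.30 ± 0.06, adjusted p = 0.0156). Without NOS3-TG TAC replicates 3 and 4 and NOS3-TG baseline replicate 2, the arrays with unusual shares above background, the averaged calls of Srxn1 and Prdx1 held and those of Gclm, Txn1, Txnrd1 and Gclc were lost. With no filter on low signal those of Prdx1 (adjusted p = 0.0767), Txn1, Txnrd1 and Gclc were lost, and with normexp background the baseline call of Gclm was lost. The call of Txnrd1 was also lost without WT baseline replicate 2 or 4, that of Gclc in 10 of 16 cases with 1 array left out, and the baseline call of Gclm without NOS3-TG baseline replicate 2 or WT baseline replicate 1, 3 or 4. Of these 6 genes, 5 had a promoter window. The antioxidant response element core was found in the windows of Gclm and Prdx1 and in 1 of 3 windows of Txnrd1. It was held by 10.2% of the windows of all genes, and its part in these differences was not tested.

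Of all genes, 11.8% were called after TAC in NOS3-TG and 28.5% in WT. Among further peroxidases and the genes of glutathione, copper and selenium supply, few were called after TAC. Here, Gpx8, a peroxidase of the endoplasmic reticulum, rose in NOS3-TG by 0.39 ± 0.10 (adjusted p = 0.0233) and Prdx1 fell there by 0.27 on the log2 scale (adjusted p = 0.0415), while none of the 6 further family genes was called in WT. Ggt5, which cleaves glutathione conjugates, fell in NOS3-TG (-0.60 ± 0.16, adjusted p = 0.0281) and in WT (-0.48 ± 0.16, adjusted p = 0.0366), the only 1 of 5 in that list in each. Leaving out 1 array ended the call of Gpx8 for 4 of the 16 arrays, that of Prdx1 for 9, and that of Ggt5 for 6 in NOS3-TG and 5 in WT. Of 10 other settings, 2 ended the call of Gpx8, 6 that of Prdx1, and 3 and 2 that of Ggt5 in NOS3-TG and in WT. Of 9 genes of copper delivery and selenoprotein synthesis, which supply Sod1 and the glutathione peroxidases, Pstk, a kinase of selenocysteine synthesis, fell in WT (-0.66 ± 0.11, adjusted p = 0.00104) and none was called in NOS3-TG.

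**Figure D4:**
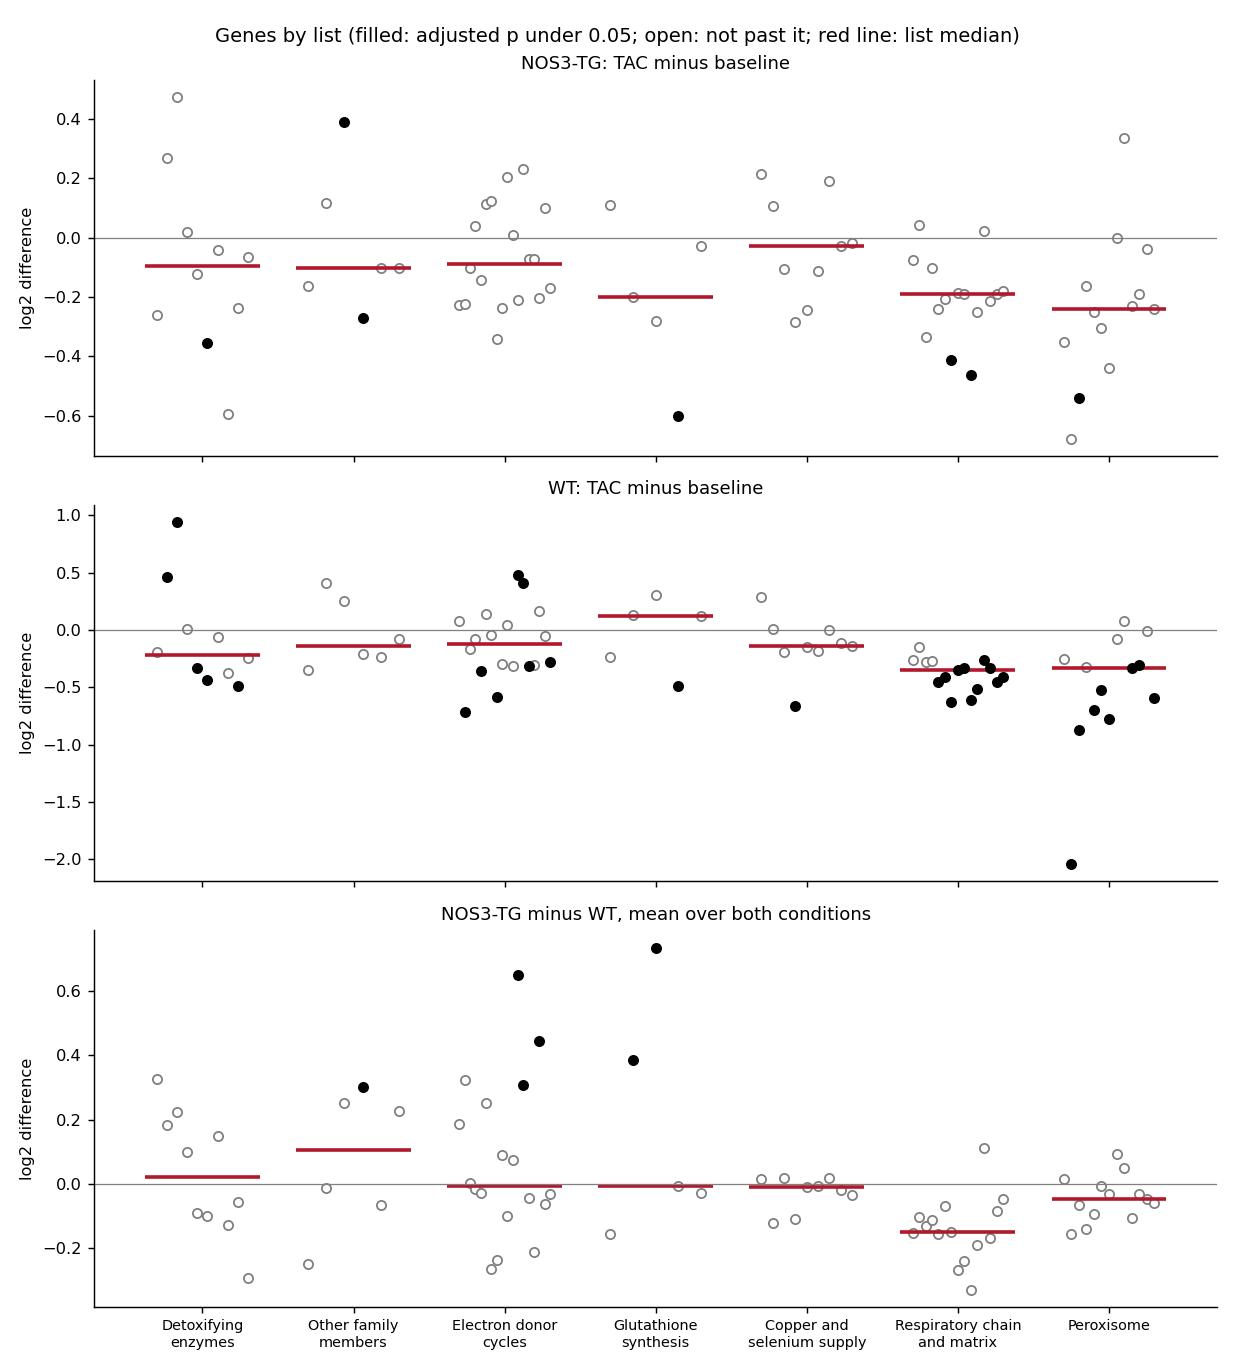
Each point is 1 gene, placed by list along the horizontal axis and by its log2 difference on the vertical axis, for TAC minus baseline in NOS3-TG (top), TAC minus baseline in WT (middle) and NOS3-TG minus WT over both conditions (bottom); filled points had an adjusted p under 0.05 and red lines are list medians. In WT nearly all genes of the respiratory chain and peroxisome lists lie below 0, and in the bottom panel the filled points are Prdx1, Srxn1, Txn1, Txnrd1, Gclm and Gclc.

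Genes of the organelles that house some of these enzymes were called mostly in WT, as were genes in general. Of all genes, 17.6% were called lower in WT and 5.36% in NOS3-TG. No gene of these lists passed the interaction, so the counts do not show a difference between the genotypes. Of 15 genes of the respiratory chain and matrix, 11 fell in WT and 2 in NOS3-TG, with medians of -0.35 and -0.19. Examples in WT were Ndufs1 (-0.63 ± 0.12, adjusted p = 0.00269) and Sdha (-0.61 ± 0.13, adjusted p = 0.00484), subunits of complexes I and II, which were also the 2 called in NOS3-TG (-0.41 ± 0.12 and -0.46 ± 0.13). Sod2 (-0.48) and Prdx3 (-0.33), the enzymes of the mitochondrial matrix, lay within the range of that list in WT (-0.63 to -0.15). Of the enzymes found in mitochondria and elsewhere, Prdx5 (-0.43) also lay within it, whereas Gpx1 rose (0.46) and lay outside it. Of 13 peroxisome genes, 8 fell in WT and 1, Abcd3, in NOS3-TG, with medians of -0.33 and -0.24. Abcd3, a transporter of the peroxisomal membrane, fell by 0.87 on the log2 scale in WT (adjusted p = 0.00075), and Pex7, an import receptor, by 0.59 (adjusted p = 0.00128). Abcd2, a related transporter, was well above background on 0 of 4 WT TAC arrays, on all 4 WT baseline arrays and on 1 array of each NOS3-TG group. It was at least 1.61-fold lower in WT TAC than in WT baseline. Abcd2 passed the filter only through the WT baseline arrays, where it is high, so its call among the 8 describes these arrays and is no support. That call was lost with normexp background and with the authors' values. Among the 10 genes, the peroxisomal enzyme Cat differed by -0.19 in WT and was not called. Prdx5, found in peroxisomes as well as mitochondria and cytosol, was called lower there (-0.43, adjusted p = 0.00869 in limma). Of the 11 mitochondrial falls in WT, 4 held under each alternative and with any 1 array left out, and of the 8 peroxisomal falls 5 did. In NOS3-TG the calls were lost in 12 (Ndufs1), 9 (Sdha) and 3 (Abcd3) of the 16 fits with 1 array left out, and in 4, 3 and 3 of 10 other settings.

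Markers of other cell types moved with the groups, and their part in the results was not tested. Their counts are to be read against the shares of all genes. After TAC 10.9% were called higher and 17.6% lower in WT, and 6.48% and 5.36% in NOS3-TG. Between the genotypes 0.415% were called at baseline and 2.07% over both conditions. Of 8 cardiomyocyte markers, 0 were called after TAC in NOS3-TG and 2 fell in WT (Pln and Ryr2), with all 8 below 0 in both. The call of Pln was lost in 3 of 10 other settings and that of Ryr2 in 7, with a Ryr2 difference of 0.028 after normexp background correction. Their summed signal, in multiples of the array's 75th percentile, ran from 1472 to 1868 in NOS3-TG TAC and from 1643 to 2192 in NOS3-TG baseline, and from 1518 to 1988 in WT TAC and from 1753 to 2223 in WT baseline. Of 7 fibroblast markers, 1 rose in NOS3-TG and 3 in WT, and none was called lower. Differences below 0 were found for 1 of the 7 in NOS3-TG and 2 in WT. Their summed signal was 168 to 258 in NOS3-TG TAC against 153 to 212 in NOS3-TG baseline, and 172 to 270 in WT TAC against 139 to 222 in WT baseline. Of 5 endothelial markers, 0 were called in NOS3-TG and 3 rose in WT, where the sums of 32.7 to 37.8 after TAC did not overlap with 26.1 to 28.3 at baseline. Only 1 of these 3 calls, that of Cdh5, held under each alternative and with any 1 array left out. Of 5 macrophage markers, 2 rose after TAC in NOS3-TG, where the other 3 had differences below 0 (list median -0.05). In WT 3 rose, and all 5 had differences above 0. The WT calls of Adgre1 and Cx3cr1 held throughout, and that of Csf1r was lost with the mean of its probes (adjusted p = 0.822). Cx3cr1 was well above background on only 2 of 4 WT baseline arrays. In NOS3-TG the calls after TAC of Adgre1 and Cx3cr1 were lost in 4 and 7 of the 16 fits with 1 array left out. Other settings ended them in 5 of 10 and 4 of 9 cases. At baseline 2 of 5 (Adgre1 and Csf1r) were higher in NOS3-TG than in WT. These baseline calls were lost in 8 and 7 of the 16 fits with 1 array left out and in 4 and 3 of 10 other settings. Over both conditions Adgre1 (0.48 ± 0.08, adjusted p = 0.0096) and Csf1r (0.36 ± 0.07, adjusted p = 0.0212) were higher in NOS3-TG, and the smooth muscle marker Myh11 was lower (-0.90 ± 0.18, adjusted p = 0.0228), each lost without the 3 arrays with unusual shares above background. Csf1r was also lost with no filter and with the mean of its probes. Myh11 was also lost with no filter and without WT TAC replicate 1 or WT baseline replicate 2. The macrophage sums were 8.47 to 9.41 in NOS3-TG baseline against 5.15 to 6.01 in WT baseline, with no overlap, on the same arrays on which Srxn1 and Gclm were called and Cat did not overlap. Among 5 smooth muscle markers Acta2 rose and Myh11 fell after TAC in both genotypes. The other 3 markers had differences below 0 and were not called (list medians -0.77 in NOS3-TG and -0.94 in WT), so that Acta2 was the only marker of this list that was higher. With the mean of its probes Acta2 was lower instead and not called (-0.067 in NOS3-TG, -0.56 in WT). The call of Myh11 in NOS3-TG was lost with scan day as a block and without the 3 arrays with unusual shares above background. Summed signal of the list was 114 to 144 in NOS3-TG TAC against 64.0 to 79.7 in NOS3-TG baseline. In WT it was 97.4 to 143 after TAC against 77.2 to 113 at baseline. These sums took Acta2 from its brightest probe, the only marker value that was higher, and show no rise of the list as a whole. None of the 4 measured erythroid markers was called in any of these comparisons, and their sums overlapped between all groups (102 to 421). Every marker of the first 5 lists was measured, and none of them was at background on all arrays.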

How the data were processed

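The authors deposited scanner output from Agilent Feature Extraction (version 9.5.1.1, per the file headers), and its processed signal, an intensity after background subtraction, was used. The authors also deposited log2 values for part of the probes, used only as an alternative because the sources used here do not say how they were normalized. Control and outlier spots were left out, repeated spots were averaged, and the 75th percentile of each array was subtracted on the log2 scale. Probes had to be well above background on 4 or more of the 16 arrays. A gene with several such probes was represented by the probe of highest mean. Probes were named through a RefSeq table (GRCm38.p6) by accession or symbol, or else kept the file's name.

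Limma 3.58.1 (R 4.3.3; tables read by data.table, version 1.17.8) was used with the 4 groups and sex as terms and all 16 arrays in 1 fit, with two-sided p-values adjusted over 15667 genes by Benjamini-Hochberg. The fit was tested on simulated data. The 10 genes, the lists, the tests and the named genes (all 10, the label checks and up to 4 called genes per partner list, with the smallest adjusted p, also given in other comparisons) were chosen with earlier results of these data known. For length, some called genes of the lists are not named, and markers are named only where a value turns on them. The labels call the mice of a group biological repeats. Precision is set by the small number of arrays, with a median SE of 0.13 for a log2 difference between 2 groups. Promoter windows were read with pandas 2.3.3 and numpy 2.4.6, and figures drawn with matplotlib 3.10.9 in Python 3.11.15. As alternatives, the fit was repeated after quantile normalization, after normexp correction (offset 50), on the authors' values, without a filter, and with signal required on every array. It was also repeated with probes of a gene averaged, without sex, with slide or scan day as a block, without 3 arrays with unusual shares above background, and with each array left out in turn. Scan day as a block was a fixed term in the fit. Slide was a random block for the TAC comparisons and a fixed term for the genotype, sex and interaction comparisons.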

Additional observations from a re-analysis of the deposited data

Results flagged for a closer look

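In 2 of 40 gene and group combinations 1 array stood apart from the other 3 by Dixon's test at the 95% level, which chance alone does for about 1 in 20 groups of 4. Sod1 was at 6.49 on WT TAC replicate 4, with the nearest array of that group at 6.86. Gpx1 was at 5.69 on NOS3-TG TAC replicate 1, with the nearest array of that group at 5.27. Without NOS3-TG TAC replicate 1 the Gpx1 difference between NOS3-TG TAC and NOS3-TG baseline was 0.15 instead of 0.27, and without WT TAC replicate 4 the Sod1 difference between WT TAC and WT baseline was -0.29 instead of -0.37. Neither difference passed the test with or without the array.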

How the results depend on the processing

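Of the 10 genes, 1 was called after TAC in NOS3-TG. The count was 0 with normexp background, no filter (754 of all genes called), slide as a block, scan day as a block (757) and without the 3 arrays with unusual shares above background (401), and 2 with the authors' values, which added Sod2 (adjusted p = 0.0471). After TAC in WT, 5 of the 10 were called, and 3 with no filter (2881 of all genes) or scan day as a block (2697), which both lost Gpx1 and Prdx3, and 6 without the 3 arrays, which added Sod1 (adjusted p = 0.0420). Averaged over genotypes, 7 of the 10 were called, and 2 (Gpx3 and Prdx5) with scan day as a block (3237 of all genes). There Cat and Prdx3 were lost with no filter (adjusted p = 0.119 and 0.0870) and with slide as a block (0.0786 and 0.0512), Cat without the 3 arrays (0.0536) and Sod1 with quantile normalization (0.0586). Between the genotypes over both conditions the count was 0, and 1 (Cat) with quantile normalization, the authors' values or a filter on all arrays. The all-gene counts between genotypes after TAC were 78 with quantile normalization, 6 with no filter, 83 with a filter on all arrays, 19 without the sex term, 74 with slide as a block and 3 without the 3 arrays, against 44. At baseline they were 28 with no filter, 112 with a filter on all arrays, 109 with slide as a block and 24 without the 3 arrays, against 65. Over both conditions they were 129 with no filter and 77 without the 3 arrays, against 325, and between the sexes 32 and 24, against 208. The share of higher calls between genotypes after TAC was 90.9%, and 80.8% with the authors' values. With 1 array left out, calls among the 10 genes ranged from 0 to 2 after TAC in NOS3-TG, 2 to 6 in WT, 5 to 7 averaged, and 0 to 1 between genotypes averaged and between sexes, and stayed at 0 elsewhere. Over all genes they ranged from 971 to 2262, 2913 to 5026 and 5071 to 6166 for the 3 TAC comparisons, 2 to 61 after TAC, 24 to 111 at baseline and 189 to 435 averaged between genotypes, 67 to 551 between sexes, and 0 to 1 for the interaction. Differences near 0 changed sign: Gpx4 to -0.0088 in NOS3-TG and -0.0079 in WT with normexp background, Prdx6 in WT to 0.025 with quantile normalization and 0.0075 with normexp background, and Sod3 in NOS3-TG to 0.013 without the 3 arrays. With 1 array left out, Gpx4 ranged from -0.039 to 0.071 in NOS3-TG and from -0.048 to 0.090 in WT, Prdx6 from -0.12 to 0.045 and Sod3 from -0.15 to 0.024 in NOS3-TG. Among the markers, Acta2 changed sign with the mean of its probes (-0.067 in NOS3-TG, -0.56 in WT) and Ryr2 in WT with normexp background (0.028). With no filter more genes and with the filter on all arrays fewer genes were tested, and without the 3 arrays fewer mice; the cause of the other changes was not tested. No paired analysis was possible because the labels give no replicate numbers shared between groups, but genotypes on the same slide were compared within slides and with slide as a block.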
